A study of Homo sapiens with 6 samples.

Results

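The p53 target genes described here are 10 genes that the transcription factor p53 is known to switch on: CDKN1A, MDM2, GDF15, BTG2, SESN1, ZMAT3, TP53INP1, FAS, RRM2B and XPC. They were chosen by name for that role, with earlier results of these data known, and all 10 are among the 21134 genes of the series. RNA sequencing had been done on 6 libraries of cells labelled hiPSC-CMs, cardiomyocytes derived from human pluripotent stem cells. The control group was 2 libraries of cells given no treatment, the alcohol group was 2 libraries of cells given 100 mM alcohol for 24 h, and the co-treated group was 2 libraries of cells that had losartan at 1 μM beside the same alcohol dose for the same time. Losartan blocks the type 1 receptor of angiotensin II, and the study asked what alcohol does to the cells and what losartan does to that effect. No library had losartan alone. The labels name H9, an embryonic stem cell line, for all groups, so the libraries model 1 genetic background. The labels number 2 replicates a group without saying that they came from separate cultures, and p-values here measure only the spread between these libraries.

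p53 is a transcription factor that binds DNA as a tetramer and is activated by DNA damage and other stress. In unstressed cells its level is kept low by MDM2, a ubiquitin ligase that p53 itself induces, which closes a negative feedback loop. Its targets stop the cell cycle, repair DNA, limit oxidative and metabolic stress or start apoptosis. p53 activity has been linked to the loss of cardiomyocytes under stress, and much of its activation takes place at the protein level, which a measurement of RNA does not read.

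Sequence upstream of the start sites was read from RefSeq windows of GRCh38.p14, which held entries for 8 of the 10 genes (16 windows of 250 bases; none for TP53INP1 and RRM2B). A p53 response element is a pair of 10-base units. A search for it with no gap between the units, with the central C and G of each unit required and up to 3 other letters off, found a match in 306 of 27305 genes (1.12%) and in 3 of the 8 genes, MDM2, SESN1 and FAS. With at most 1 letter off, 18 genes (0.0659%) had a match and none of the 8 did. The 8 genes had 16 windows and the 27305 genes had 35116, so the shares are not on an equal footing. The search rule was chosen after the windows had been read, and a match is a description of letters and not a bound site. The matches are shown because they are the letters through which p53 is known to act, with the 20-base element in capitals:
MDM2: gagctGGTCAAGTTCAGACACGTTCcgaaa
SESN1: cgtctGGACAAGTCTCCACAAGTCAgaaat
FAS: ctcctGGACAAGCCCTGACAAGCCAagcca
The MDM2 element lies at chr12:68808923-68808942 on the plus strand, 94 to 75 bases before a start site, with 2 letters off. The SESN1 element lies at chr6:109009018-109009037 on the minus strand, 49 to 30 bases before a start site, with 3 letters off. The FAS element lies at chr10:88991309-88991328 on the plus strand, 122 to 103 bases before a start site, with 2 letters off. Each of these genes has more than 1 annotated start, and the distances are from 1 of them. All 3 elements lie inside the annotated span of their gene, downstream of its first start. For FAS all 250 bases of the window lie in annotated exons of FAS itself.

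CDKN1A and BTG2 had the smallest p of the 10 genes among those lower and those higher than control, and their upstream sequence is shown for that reason, with the motif GGGCGG, read on either strand, in capitals:
CDKN1A: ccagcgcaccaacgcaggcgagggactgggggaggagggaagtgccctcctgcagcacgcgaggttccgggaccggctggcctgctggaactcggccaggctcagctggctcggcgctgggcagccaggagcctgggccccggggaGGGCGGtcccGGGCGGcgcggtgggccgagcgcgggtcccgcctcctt
BTG2: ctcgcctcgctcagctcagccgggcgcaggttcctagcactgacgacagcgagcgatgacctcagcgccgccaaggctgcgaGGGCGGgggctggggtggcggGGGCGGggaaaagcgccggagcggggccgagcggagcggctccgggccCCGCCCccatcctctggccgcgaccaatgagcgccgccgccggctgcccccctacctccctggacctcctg
The CDKN1A stretch is chr6:36678464-36678657 on the plus strand, 250 to 57 bases before a start site, and holds 2 copies of GGGCGG. The annotated CDKN1A gene begins earlier, at chr6:36676460, so this stretch lies inside it and not before its first start. The BTG2 stretch is chr1:203305269-203305490 on the plus strand, 250 to 29 bases before the start, and holds 3 copies. GGGCGG occurs in 42.6% of the 35116 windows, so its presence does not set these genes apart. The search rule above matched no p53 response element in either window of 250 bases. Sequence outside these windows was not searched, so an element farther from the start would not be seen.

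The 10 genes covered a wide range of levels. Over the 6 libraries, mean FPKM (fragments scaled by transcript length and library size) ran from 82.0 for CDKN1A, higher than 96.5% of the genes of the series, to 0.747 for FAS, higher than 28.4%. Between them came BTG2 at 38.8, TP53INP1 at 18.5, SESN1 at 14.7, ZMAT3 at 14.7, MDM2 at 13.3, XPC at 8.81, RRM2B at 7.51 and GDF15 at 4.58. The libraries of CDKN1A did not overlap those of BTG2, nor those of BTG2 those of TP53INP1, nor those of MDM2 those of XPC. GDF15 lay below RRM2B and above FAS in every library. TP53INP1, SESN1, ZMAT3 and MDM2 overlapped with their neighbours in this order, as did XPC with RRM2B. The plot of FPKM by library shows these levels.

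**Figure D1:**
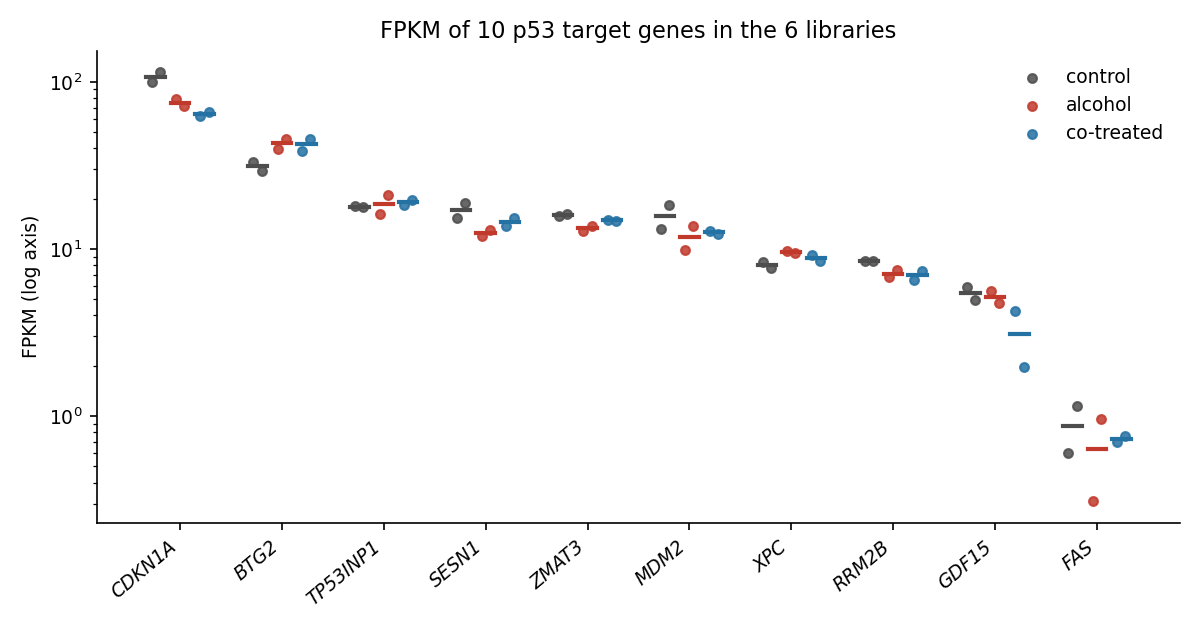
FPKM of the 10 p53 target genes in each library, on a log axis. Points are libraries and bars are group means (n = 2). CDKN1A is the highest gene in all groups and its control libraries sit above its alcohol and co-treated libraries, while FAS lies near or below 1 FPKM.

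CDKN1A encodes p21, the inhibitor of cyclin-dependent kinases through which p53 arrests the cell cycle. It fell in the co-treated cells relative to control and was the only one of the 10 genes to pass the test in any comparison of the study's groups. CDKN1A stood at 99.3 and 114 FPKM in the control libraries, at 78.7 and 71.4 FPKM in the alcohol libraries and at 62.7 and 65.6 FPKM in the co-treated libraries. Every control library was above every alcohol library, and every alcohol library was above every co-treated library. Exons of CDKN1A overlap those of the noncoding RNA DINOL on the opposite strand, and the strand setting of the counting is not given in the sources used here, so reads from that overlap cannot be told apart. The group means were 107 ± 10.5, 75.0 ± 5.11 and 64.2 ± 2.02 FPKM (SD, n = 2 each).

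In the co-treated cells CDKN1A fell by 41.7% from control, a log2 fold change of −0.78 (SE 0.12, 95% interval −1.05 to −0.51) with an adjusted p of 0.0203 by edgeR's quasi-likelihood test. In that comparison 1 of the 10 genes was called, beside 0.362% of the 14926 genes tested (0.147% with a fall). With alcohol alone CDKN1A was at 0.685 times control, a log2 fold change of −0.55 (SE 0.12, 95% interval −0.81 to −0.28), and the edgeR adjusted p was 0.121. None of the 10 genes was called in that comparison by edgeR (5 had an unadjusted p under 0.05), and edgeR called 0.0670% of all genes. DESeq2 called 1, CDKN1A, with an adjusted p of 0.0396, and gave no adjusted p for GDF15 and FAS. Between co-treated and alcohol cells the log2 fold change was −0.23 (95% interval −0.50 to 0.04, edgeR adjusted p 0.900), an interval that spans a further fall of 0.50 as well as no fall.

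The co-treated call of CDKN1A was lost when control replicate 2 was left out (edgeR adjusted p 0.128), when co-treated replicate 1 (0.157) or replicate 2 (0.286) was left out, with limma on log2(FPKM + 1) (0.103) or log2(FPKM + 0.1) (0.123), and with no filter on low counts (0.0530). Its log2 fold change stayed between −0.86 and −0.69 over the 14 alternatives.

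Averaging the alcohol and co-treated groups, a comparison added after the values were seen, gave all alcohol-exposed cells against control. CDKN1A then fell by 36.8%, a log2 fold change of −0.66 (SE 0.10, 95% interval −0.89 to −0.44, edgeR adjusted p 0.0171), and was 1 of 10 genes called beside 0.556% of all genes (0.234% with a fall). Of the 10 genes, 5 had an unadjusted p under 0.05 with lower values (7.05% of all genes) and 1, BTG2, with higher values (6.48%). The 4 alcohol-exposed libraries lay wholly below control for 4 genes, CDKN1A, MDM2, RRM2B and ZMAT3 (11.3% of all genes), and wholly above it for BTG2 (11.8%). This average shares its libraries with the comparisons above and is not separate evidence. The call was lost without control replicate 2 (edgeR adjusted p 0.169), without co-treated replicate 1 (0.0932) or replicate 2 (0.102), and with limma (0.0789 and 0.0842). The smallest two-sided p that an exact permutation test over samples could reach was 0.333 for 2 libraries against 2 and 0.1333 for 4 against 2, so single values were tested within the fit over all genes.

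BTG2 encodes an antiproliferative protein that binds the deadenylase complex and is induced by p53. Its values lay on the other side of control from those of CDKN1A. BTG2 stood at 32.9 and 29.5 FPKM in the control libraries, at 39.9 and 45.7 in the alcohol libraries and at 38.8 and 45.8 in the co-treated libraries. All 4 alcohol-exposed libraries were above both control libraries, while the alcohol and co-treated groups overlapped. The log2 fold change was 0.42 with alcohol (SE 0.13, 95% interval 0.13 to 0.70, edgeR adjusted p 0.254) and 0.39 with alcohol and losartan (SE 0.13, edgeR adjusted p 0.236), and neither passed the test.

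**Figure D2:**
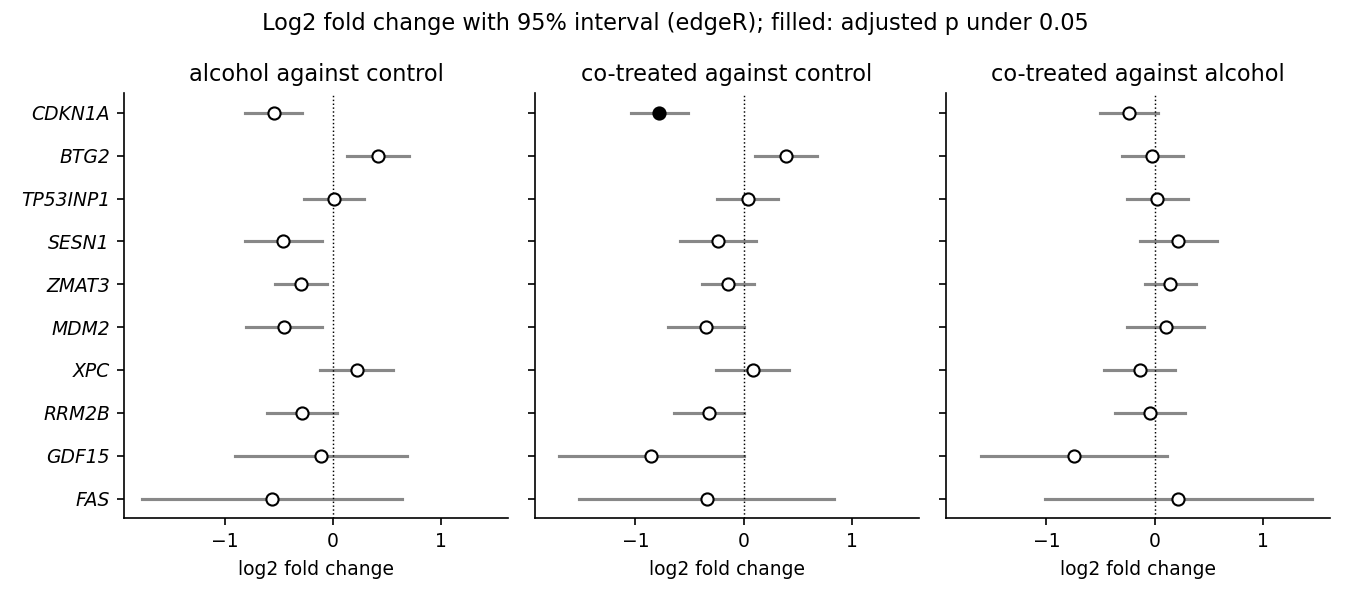
Log2 fold changes of the 10 genes in the 3 comparisons of the study's groups, from edgeR. Bars are 95% intervals and a filled point marks an adjusted p under 0.05. The only filled point is CDKN1A in co-treated against control, at −0.78, and the intervals of FAS and GDF15 are the widest.

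MDM2, the ubiquitin ligase of the feedback loop, had 13.1 and 18.2 FPKM in the control libraries, 9.81 and 13.7 in the alcohol libraries and 12.8 and 12.3 in the co-treated libraries. The control and alcohol libraries overlapped in FPKM, but in CPM (counts scaled to the library size with TMM factors, and not by length) the control libraries, at 100.5 and 138.6, were above the alcohol libraries, at 76.1 and 98.8. The log2 fold change with alcohol was −0.45 (SE 0.16, edgeR adjusted p 0.320) and that with alcohol and losartan was −0.35 (SE 0.16, edgeR adjusted p 0.398). Exons of MDM2 overlap those of the carboxypeptidase gene CPM on the opposite strand, where reads of both genes cannot be told apart.

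SESN1 encodes sestrin 1, which restrains mTORC1 and oxidative stress. It had 15.3 and 18.9 FPKM in the control libraries, 11.99 and 12.93 in the alcohol libraries and 13.6 and 15.3 in the co-treated libraries. Both control libraries were above both alcohol libraries, and the co-treated libraries were above the alcohol ones and reached the lower control library. The log2 fold change was −0.46 with alcohol (SE 0.16, edgeR adjusted p 0.314) and −0.24 with alcohol and losartan (SE 0.16, edgeR adjusted p 0.602). The transcript length deposited for SESN1 differed between libraries by up to 8.59%, from 2807 to 3048 bases, which enters its FPKM but not its counts. Its exons overlap those of AL390208.1, an antisense gene.

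ZMAT3 encodes an RNA-binding zinc finger protein that acts in splicing and RNA stability downstream of p53. Its SE in the alcohol comparison was the smallest of the 10 genes. ZMAT3 had 15.7 and 16.1 FPKM in the control libraries, 12.8 and 13.8 in the alcohol libraries and 14.9 and 14.8 in the co-treated libraries. The groups were in the order control, co-treated, alcohol with no overlap. The log2 fold change was −0.29 with alcohol (SE 0.11, 95% interval −0.53 to −0.05, edgeR adjusted p 0.344), −0.14 with alcohol and losartan (edgeR adjusted p 0.651) and 0.15 for co-treated against alcohol (95% interval −0.09 to 0.39, edgeR adjusted p 0.928).

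The DNA repair genes were RRM2B and XPC. RRM2B encodes a ribonucleotide reductase subunit that supplies nucleotides outside S phase, and it had 8.45 and 8.52 FPKM in the control libraries, 6.79 and 7.44 in the alcohol libraries and 6.54 and 7.34 in the co-treated libraries. Both control libraries of RRM2B were above all 4 alcohol-exposed libraries. Its log2 fold change was −0.28 with alcohol (SE 0.15, edgeR adjusted p 0.523) and −0.32 with alcohol and losartan (SE 0.15, edgeR adjusted p 0.394). XPC encodes the damage sensor of global nucleotide excision repair, and it had 8.35 and 7.73 FPKM in the control libraries, 9.76 and 9.41 in the alcohol libraries and 9.18 and 8.43 in the co-treated libraries. XPC was higher in both alcohol libraries than in any other library, with a log2 fold change of 0.22 against control (95% interval −0.11 to 0.55, edgeR adjusted p 0.664). Its exons overlap those of LSM3 on the opposite strand.

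TP53INP1 and FAS act in cell death. TP53INP1 encodes a stress protein that assists p53 phosphorylation and autophagy, and it had 18.1 and 17.8 FPKM in the control libraries, 16.14 and 21.04 in the alcohol libraries and 18.5 and 19.6 in the co-treated libraries. The control libraries of TP53INP1 lay between the alcohol ones, and the log2 fold change with alcohol was 0.01 (95% interval −0.27 to 0.29). FAS encodes the death receptor of the extrinsic pathway, and it had 0.60 and 1.15 FPKM in the control libraries, 0.31 and 0.96 in the alcohol libraries and 0.70 and 0.76 in the co-treated libraries. These FAS values rest on 6 to 23 counts a library, and the log2 fold change with alcohol was −0.56 with a 95% interval of −1.76 to 0.64, so a change of FAS was not detectable at this depth. Exons of FAS overlap those of ACTA2, smooth muscle actin, on the opposite strand, and ACTA2 is far more abundant in these libraries.

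GDF15 encodes a secreted stress cytokine of the TGF-beta superfamily. It had 5.93 and 4.95 FPKM in the control libraries, 5.60 and 4.75 in the alcohol libraries and 4.24 and 1.98 in the co-treated libraries. Both co-treated libraries were below all others, but they differed from each other by more than any other pair of replicates of this gene did. Behind these values stood 25 and 12 counts in the co-treated libraries and 28 to 36 counts in the rest. The log2 fold change of GDF15 was −0.11 with alcohol (95% interval −0.91 to 0.69), −0.85 for co-treated against control (SE 0.40, edgeR adjusted p 0.396) and −0.74 for co-treated against alcohol (95% interval −1.60 to 0.12, edgeR adjusted p 0.900).

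Read as a list, the 10 genes had more members below control than above it. With alcohol 7 of the 10 log2 fold changes were below 0, as for 50.6% of all genes, and 4 of the 10 had an unadjusted p under 0.05 and lower values (CDKN1A, MDM2, SESN1 and ZMAT3; 5.78% of all genes did so) and 1 had higher values (BTG2; 5.27% of all genes). The libraries of 5 genes lay wholly below control, as for 21.8% of all genes, and those of 2 wholly above it, as for 22.0%. The median log2 fold change of the 10 genes was −0.29, beside −0.0033 over all genes. The count of 5 genes with an unadjusted p under 0.05 fell to 1 without control replicate 2, to 2 without alcohol replicate 1 and to 3 without alcohol replicate 2.

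Against control, 7 of the 10 log2 fold changes of the co-treated cells were also below 0, as for 50.2% of all genes. The co-treated cells had 3 of the 10 genes with an unadjusted p under 0.05 and lower values (CDKN1A, GDF15 and RRM2B; 6.37% of all genes) and 1 with higher values (BTG2; 6.26%). That count of 4 was 1 without control replicate 2 and 2 without co-treated replicate 2. The libraries of 5 genes lay wholly below control, as for 21.7% of all genes, and those of BTG2 wholly above it, as for 21.6%. The median log2 fold change was −0.28, beside −0.0017 over all genes. This median was −0.067 without control replicate 2 and −0.18 without co-treated replicate 1. Both comparisons share the control libraries, so their likeness is not separate evidence.

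For co-treated against alcohol cells none of the 10 genes was called by edgeR, beside 0.0134% of all genes, and none had an unadjusted p under 0.05, beside 5.55%; DESeq2 also called none. The libraries of 2 genes lay wholly above the alcohol libraries in CPM (SESN1 and ZMAT3; 17.4% of all genes) and those of 3 wholly below them (CDKN1A, GDF15 and XPC; 16.2%). The median log2 fold change was 0.0019, beside 0.0023 over all genes. Of these 5 genes, SESN1, ZMAT3 and XPC lay nearer to control in the co-treated than in the alcohol cells, while CDKN1A and GDF15 lay farther from it. None of these differences passed the test.

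**Figure D3:**
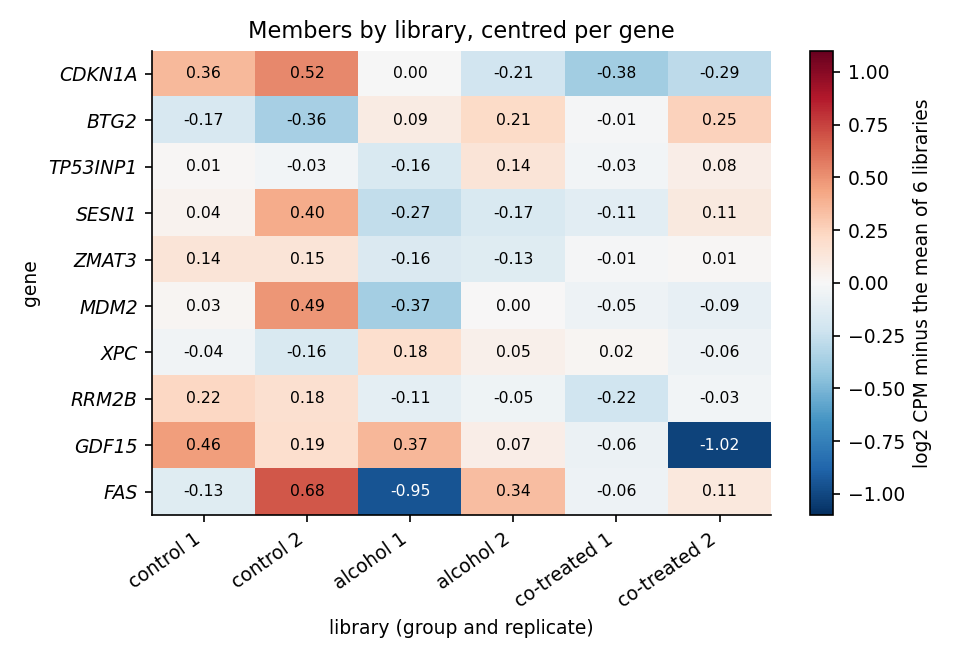
Log2 CPM of the 10 genes in each library, minus the mean of the gene over the 6 libraries. CDKN1A is above its mean in the control libraries only, BTG2 has its lowest values there, and the largest departures are GDF15 in co-treated replicate 2 (−1.02) and FAS in alcohol replicate 1 (−0.95).

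The 10 genes did not share 1 profile across the libraries. Likeness was taken as the root mean square difference of centred log2 CPM over the 6 libraries, as a description. The closest pairs were ZMAT3 and RRM2B at 0.101 and MDM2 and SESN1 at 0.123. The member nearest to CDKN1A was RRM2B at 0.212, and of all genes tested the nearest were CRABP2 at 0.0635, HNRNPH1 at 0.0712 and HNRNPAB at 0.0725. The pool of all genes tested is far larger than the list, so nearer genes there do not set CDKN1A apart from the members. GDF15 had no close member, its nearest being CDKN1A at 0.403. The points share libraries and depth, and low counts widen the differences of GDF15 and FAS.

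MDM4, which binds p53 and blocks its activity, had 9.46 and 8.65 FPKM in control, 6.90 and 7.97 in alcohol and 10.0 and 9.14 in co-treated libraries. Both alcohol libraries of MDM4 were below all others, with a log2 fold change of −0.32 for alcohol against control (edgeR adjusted p 0.347) and of 0.36 for co-treated against alcohol (edgeR adjusted p 0.836). Of 18 p53 family members and regulators tested, none was called in these comparisons, where edgeR called 0.0670% and 0.0134% of all genes. With alcohol 1 had an unadjusted p under 0.05 with higher and 1 with lower values, beside 5.27% and 5.78% of all genes.

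A wider set of 94 other p53 target genes in 5 lists was read beside the 10, and 87 of them were tested. With alcohol none was called by edgeR, 4 had an unadjusted p under 0.05 with higher and 11 with lower values, and the median log2 fold change was −0.10. In the co-treated cells against control 1 was called, 6 had an unadjusted p under 0.05 with higher and 13 with lower values, and the median was −0.093. Between co-treated and alcohol cells none was called, 3 had an unadjusted p under 0.05 with higher and 2 with lower values, and the median was −0.0070. These shares stand beside 11.0%, 12.6% and 5.55% of all genes with an unadjusted p under 0.05 in the same comparisons. By direction, 5.27% were higher and 5.78% lower with alcohol, and 6.26% higher and 6.37% lower for co-treated against control. For co-treated against alcohol 2.84% were higher. EdgeR called 0.0670%, 0.362% and 0.0134% of all genes in the same order. The medians over all genes were −0.0033, −0.0017 and 0.0023.

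The called gene was AEN, a p53-induced nuclease that takes part in apoptosis. AEN had 10.8 and 12.2 FPKM in the control libraries, 7.99 and 7.58 in the alcohol libraries and 6.75 and 4.99 in the co-treated libraries, in the same order of groups as CDKN1A and with no overlap. Its log2 fold change was −1.01 for co-treated against control (SE 0.18, edgeR adjusted p 0.0350) and −0.60 for alcohol against control (SE 0.18, edgeR adjusted p 0.232). The call of AEN held in 7 of 14 alternatives, with adjusted p from 0.0196 to 0.349, and among the fits that leave out 1 library it was lost without control replicate 1 (0.0641) or replicate 2 (0.162) and without co-treated replicate 1 (0.107) or replicate 2 (0.349). It was also lost with limma (0.130 and 0.139) and with no filter (0.0789).

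Of the 19 apoptosis targets tested, 4 had an unadjusted p under 0.05 with alcohol, all with lower values, beside 5.78% of all genes, and 15 had a log2 fold change below 0, beside 50.6%. Among them were death receptors of the TRAIL family. TNFRSF10D, a decoy receptor, had 8.05 and 9.02 FPKM in the control, 5.30 and 4.44 in the alcohol and 5.52 and 6.32 in the co-treated libraries, a log2 fold change of −0.85 with alcohol (edgeR adjusted p 0.119). TNFRSF10B, the signalling receptor DR5, had 24.4 and 24.5 FPKM in the control, 19.3 and 17.8 in the alcohol and 22.1 and 17.5 in the co-treated libraries, a log2 fold change of −0.44 with alcohol (edgeR adjusted p 0.228). Both control libraries were above all 4 alcohol-exposed libraries for each of these receptors.

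The other lists are given by their counts with alcohol, beside 5.78% of all genes lower and 5.27% higher at an unadjusted p under 0.05. Of 12 cell cycle targets 2 had an unadjusted p under 0.05 with lower values in alcohol and none with higher values, of 8 DNA repair targets 1 and none, of 18 metabolism, redox and autophagy targets 2 and 2, and of 30 signalling, adhesion and other targets 2 and 2. The sestrin SESN2, which senses leucine and restrains mTORC1 as SESN1 does, had 6.33 and 7.52 FPKM in the control, 4.94 and 5.38 in the alcohol and 5.04 and 4.02 in the co-treated libraries, with a log2 fold change of −0.66 for co-treated against control (edgeR adjusted p 0.171). ARHGEF3, an activator of RhoA, had the reverse order, with 5.07 and 4.42 FPKM in the control, 7.10 and 6.50 in the alcohol and 8.49 and 9.38 in the co-treated libraries, and a log2 fold change of 0.87 for co-treated against control (edgeR adjusted p 0.0653).

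**Figure D4:**
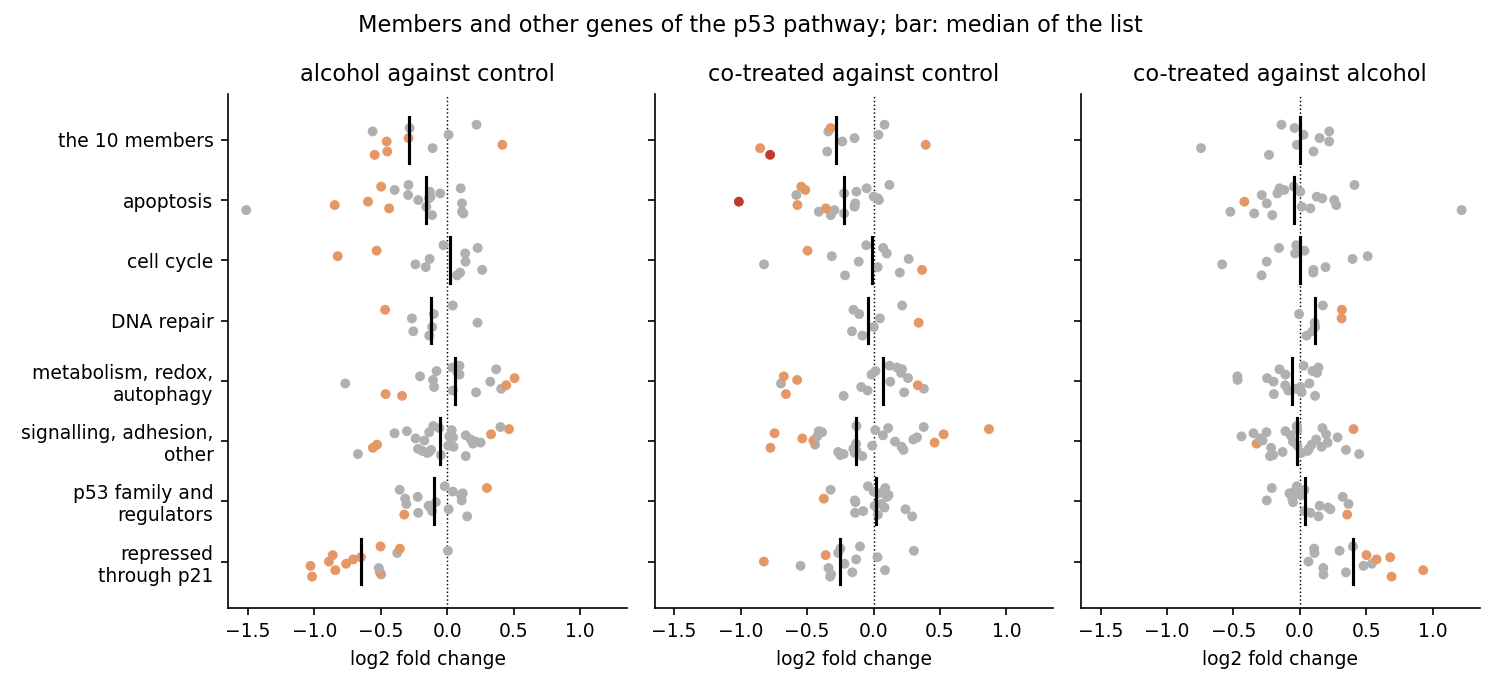
Log2 fold change of each gene tested in the p53 lists and in the cell cycle genes repressed through p21, for the 3 comparisons of the study's groups, from edgeR. Each point is a gene, red for an adjusted p under 0.05, orange for an unadjusted p under 0.05 and grey for the rest, and a bar marks the median of the list. The list repressed through p21 has its median at −0.65 for alcohol against control and at 0.40 for co-treated against alcohol, while the apoptosis targets have theirs at −0.16 for alcohol and −0.22 for co-treated cells against control.

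p21 is known to hold down cell cycle genes by keeping the DREAM complex on their promoters, so 15 genes repressed in that way were read beside CDKN1A. None of the 15 was called by edgeR in any comparison of the study's groups. Of all genes, 0.0670% were called for alcohol against control, 0.0134% for co-treated against alcohol and 0.362% for co-treated against control. With alcohol 11 of the 15 had an unadjusted p under 0.05, all with lower values, beside 5.78% of all genes, and the median log2 fold change was −0.65. The median over all genes was −0.0033. For co-treated against alcohol 5 of the 15 had an unadjusted p under 0.05, all with higher values, beside 2.84% of all genes. All 15 log2 fold changes were above 0, as for 7510 of the 14926 genes tested. Their median was 0.40, beside 0.0023 over all genes. The 15 genes were read in the same libraries and are not 15 separate observations. For co-treated against control the median was −0.25, beside −0.0017 over all genes. There 2 genes had an unadjusted p under 0.05 and lower values, beside 6.37% of all genes. The first 2 of these comparisons share the alcohol libraries and the control libraries also recur, so the medians are not independent. The count of 11 was 4 without control replicate 2, 4 without alcohol replicate 1, 4 with limma and 6 with DESeq2, and the count of 5 was 3 without alcohol replicate 1, 2 without co-treated replicate 1 and 2 with DESeq2.

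The mitotic kinase CDK1 had 23.04 and 38.2 FPKM in the control libraries, 17.2 and 17.8 in the alcohol libraries and 37.5 and 29.8 in the co-treated libraries. Its log2 fold change was −0.84 with alcohol (edgeR adjusted p 0.147) and 0.93 for co-treated against alcohol (edgeR adjusted p 0.461). BUB1, a kinase of the spindle checkpoint, had 25.3 and 37.3 FPKM in the control, 16.7 and 18.7 in the alcohol and 25.7 and 24.7 in the co-treated libraries, with a log2 fold change of −0.86 with alcohol (edgeR adjusted p 0.0659). CCNB1, the cyclin of mitotic entry, had 25.4 and 49.7 FPKM in the control libraries, a wider gap than in either other group, with 15.8 and 22.3 in alcohol and 33.0 and 28.7 in co-treated libraries. In the alcohol libraries CDKN1A and these 3 genes were lower than in control, and in the co-treated libraries CDKN1A was lowest while these genes were above their alcohol values.

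Markers of the labelled cell type were abundant. The summed FPKM of 12 cardiomyocyte markers ranged from 26406 to 27036 in the control, from 19840 to 26348 in the alcohol and from 22668 to 24755 in the co-treated libraries. MYL7 was the largest part of these sums, with means of 15346, 10967 and 11044 FPKM in the same order. Against control, 5 of the 12 log2 fold changes were below 0 with alcohol (median 0.024) and 7 in the co-treated cells (median −0.096). The 8 pluripotency markers summed to 18.7 to 26.6 FPKM over all libraries. The sums for 3 other cell types were small beside the cardiomyocyte sums but higher in both treated groups than in control. Not every marker rose. With alcohol the log2 fold change was below 0 for 3 of 8 fibroblast, 1 of 4 endoderm and 2 of 4 endothelial markers tested. Over all genes this share was 50.6%. POSTN, a fibroblast marker, had a mean of 36.4 FPKM in the control and 28.7 in the alcohol libraries. The 10 fibroblast markers summed to 422 to 467 FPKM in the control, 482 to 517 in the alcohol and 468 to 518 in the co-treated libraries. The 8 endoderm markers summed to 38.8 to 40.2, 51.6 to 51.9 and 49.4 to 50.4 FPKM in the same order. The 8 endothelial markers summed to 6.27 to 7.20, 8.08 to 8.92 and 9.31 to 11.3 FPKM. KDR, the VEGF receptor among them, made up most of these sums, with means of 3.85, 5.855 and 7.185 FPKM. It had a log2 fold change of 0.86 for co-treated against control (SE 0.17, edgeR adjusted p 0.0502, called in 6 of 14 alternatives). The part of these markers in the values of CDKN1A was not tested. CLDN5, an endothelial marker, was at 0 in both control and both co-treated libraries, and FOXA2, an endoderm marker, was at 0 in both control libraries. In such bulk libraries fewer cells of a type and less RNA per cell cannot be told apart.

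The summed level of the 6 smooth muscle markers was lower in both treated groups than in control, as that of CDKN1A was. They summed to 1724 to 1965 FPKM in the control, 751 to 1491 in the alcohol and 1027 to 1069 in the co-treated libraries, and all 6 had a log2 fold change below 0 against control in both treated groups, beside 50.6% and 50.2% of all genes. In each treated group 3 of the 6 did not overlap control (21.8% and 21.7% of all genes lay wholly below it). With alcohol none was called by edgeR, beside 0.0670% of all genes, and 3 had an unadjusted p under 0.05 with lower values, beside 5.78%. In the co-treated cells 1, ACTA2, was called, beside 0.362% of all genes (0.147% with a fall). ACTA2 had 507 and 580 FPKM in the control, 337 and 203 in the alcohol and 248 and 224 in the co-treated libraries, and it fell in the co-treated cells by 1.25 on the log2 scale (SE 0.20, edgeR adjusted p 0.0203), a call that was lost without co-treated replicate 1 (0.157) or replicate 2 (0.349), with limma (0.117 and 0.129) and with no filter (0.0530). ACTA2 is also made by immature cardiomyocytes and fibroblasts. The part of the smooth muscle markers in the CDKN1A values was not tested either.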

How the data were processed

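RNA was extracted with Trizol and sequenced by standard Illumina protocols, per the labels. The submitters' processing notes name HISAT2 2.0.4, Bowtie2 2.2.5, RSEM 1.2.12 and hg38 without their roles. For each gene and library the authors deposited an expected count, an FPKM and a transcript length. Of the expected counts deposited, 33.9% were not whole and all were rounded. Totals were 4898287 to 5051448 per library, and counting errors cover counting only. Genes missing from a library's table were set to 0.

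Groups follow the treatment each label gives. The test was edgeR 4.0.16 (quasi-likelihood F test, two-sided, TMM, filterByExpr, all 6 libraries in 1 fit, R 4.3.3) with Benjamini-Hochberg adjustment over 14926 genes, called at 0.05; all 10 genes passed the filter. An SE is the log2 fold change over the square root of F. Whether libraries overlap was read on CPM unless FPKM is named. Alternatives were DESeq2 1.42.0, limma 3.58.1 on log2 FPKM with a pseudocount of 1 or 0.1, RLE size factors, other filters, the replicate block, only the 2 groups compared, and each library left out. The code was tested on simulated data.

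The 10 genes and the lists were chosen with earlier results of these data known. Genes are named from a list when called, or by the smallest unadjusted p under 0.05, up to 4 a list and comparison, with MDM4 in any case. Overlapping exons were read from GENCODE 29 (GRCh38). A result on 1 other gene is not reported here.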

Additional observations from a re-analysis of the deposited data

How the results depend on the processing

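Each result was recomputed under 14 alternatives (13 for the alcohol-exposed average, chosen after seeing the data). With alcohol against control DESeq2 gave no adjusted p for GDF15 and FAS, and these were counted as not called. Of 1568 recomputed log2 fold changes of single genes, 1493 kept their direction and side of the threshold, 34 gained a call, 23 lost one and 18 turned direction. With alcohol against control, DESeq2 called 1 of the 10 genes (CDKN1A), both limma fits gave 3 genes with an unadjusted p under 0.05, and leaving out a library gave 1 to 5 such genes and 0 to 1 other targets called. With co-treated against alcohol, both limma fits gave 1 gene with an unadjusted p under 0.05 and leaving out a library gave 0 to 1. With co-treated against control, both limma fits and no filter called 0 of the 10 genes and 0 other targets, leaving out a library called 0 to 1 and 0 to 3, the fit on only the 2 groups compared called 3 other targets, and DESeq2 gave 2 genes with an unadjusted p under 0.05 (leaving out a library, 1 to 3). The median log2 fold change there was −0.16 with limma on log2(FPKM + 1) and −0.35 to −0.067 without a library. For the alcohol-exposed average, both limma fits called 0 genes and leaving out a library 0 to 1.

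Leaving out 1 library turned the direction of small log2 fold changes. The ranges were, with alcohol, −0.26 to 0.054 for GDF15, −1.52 to 0.016 for FAS and −0.15 to 0.17 for TP53INP1. For co-treated against alcohol they were −0.17 to 0.11 for BTG2, −0.36 to 1.18 for FAS, −0.084 to 0.30 for MDM2, −0.14 to 0.053 for RRM2B and −0.13 to 0.19 for TP53INP1. For co-treated against control they were −0.72 to 0.19 for FAS, −0.031 to 0.094 for MDM4 and −0.020 to 0.092 for TP53INP1, and for the alcohol-exposed average −0.93 to 0.082 for FAS and −0.057 to 0.10 for TP53INP1. None of these was called. The cause was not tested.

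The main fit did not pair the samples by replicate number. Across genes, the deviations of replicate 1 correlated at 0.114 for control and alcohol, 0.0412 for alcohol and co-treated and −0.0162 for control and co-treated. With 2 libraries a group these correlations cannot tell whether the samples were paired. With the replicate block the edgeR adjusted p of CDKN1A was 0.0117 for co-treated against control and 0.0753 for alcohol against control, and 2 other targets were called for co-treated against control. Over all genes the calls rose with the block from 10 to 48, from 2 to 5 and from 54 to 136 in the 3 comparisons of the study's groups. For the same comparisons DESeq2 called 72, 5 and 123 genes, limma on log2(FPKM + 1) 0, 1 and 2, no filter 2, 1 and 15, and leaving out a library 1 to 220, 1 to 24 and 2 to 184. FAS and GDF15 are limited by depth, with a counting error of 16.9% to 20.4% of the group total for FAS and of 12.3% to 16.4% for GDF15.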
